A study of Mus musculus with 35 samples.

Results

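The immediate early genes of neuronal activity described here are Fos, Fosb, Junb, Egr1, Egr2, Egr3, Arc, Npas4, Nr4a1 and Dusp1. They were chosen as a fixed list of 10 symbols and matched to the Ensembl identifiers of the count files, where all 10 were found among 52636 genes. Their RNA was measured by sequencing of polyA RNA from cells of the anterior and the posterior amygdala, cut from frozen brain sections by laser capture microdissection. The 35 libraries, 16 anterior and 19 posterior, came from 19 female mice, and 16 mice gave a library of each portion.

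The mice belonged to the inbred strain C57BL/6J or the hybrid strain B6D2F1N and lived in standard housing (the control environment) or in enriched housing, with a playground open for 1 h per day from postnatal day 77. Posterior libraries came from 4 C57BL/6J mice in standard and 4 in enriched housing, and from 5 B6D2F1N mice in standard and 6 in enriched housing. Anterior libraries came from 4 and 2 C57BL/6J mice and from 5 and 5 B6D2F1N mice, in the same order of housing. All mice shared a touchscreen training that began on postnatal day 70 and lasted 37 to 90 days, and a cognitive judgement bias test of 5 days, which scores how a mouse responds to an ambiguous cue. Brains were taken days after the last test. The labels class 4 mice as optimists and 5 as pessimists by that test and leave 10 in neither class. All 4 optimists lived in standard housing and 4 of the 5 pessimists in enriched housing. A mouse is named here by strain, housing and a number.

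Immediate early genes are switched on in neurons within minutes of strong synaptic input, before any new protein is made. Calcium entry activates kinases that phosphorylate factors already bound to DNA, CREB at the cAMP response element and SRF at the CArG box, and the genes fall silent again soon after. Most of the products are transcription factors that act on slower genes, while Arc works at the synapse and Dusp1 switches the kinases off. In the amygdala, which links cues to fear and reward, these RNAs are widely used as marks of recently active neurons.

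The series holds 16938534 to 27352623 counted reads per library, with 18580 to 25531 genes detected. In every library the 10 markers of excitatory neurons summed to at least 1248 CPM (counts relative to library size, scaled between libraries by TMM factors). Markers of the choroid plexus, which is no part of the amygdala, summed to 11 to 956 CPM in anterior and 138 to 14500 CPM in posterior libraries. B6D2F1N standard mouse 1 had 0 counts of Xist in both libraries although all mice are labelled female, and no library had more than 1 count on Y-linked genes. The comparisons and gene pairs that include B6D2F1N standard mouse 1 were also tested without it. The comparison of optimists with pessimists could not be fitted without it.

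Promoters of 7 of the 10 genes were found in RefSeq (GRCm38.p6), all but those of Egr1, Egr3 and Arc. Those of Fos, Nr4a1, Junb and Dusp1, whose levels are compared between mice in the text, are shown as the 250 bases before the start site, with matches to the cAMP response element, to its core TGACG (on either strand) and to the CArG box in capitals. Fos lies at chr12:85473640-85473889 on the plus strand, Nr4a1 at chr15:101266596-101266845 on the plus strand, Junb at chr8:84978749-84978998 on the minus strand and Dusp1 at chr17:26508473-26508722 on the minus strand.
Fos: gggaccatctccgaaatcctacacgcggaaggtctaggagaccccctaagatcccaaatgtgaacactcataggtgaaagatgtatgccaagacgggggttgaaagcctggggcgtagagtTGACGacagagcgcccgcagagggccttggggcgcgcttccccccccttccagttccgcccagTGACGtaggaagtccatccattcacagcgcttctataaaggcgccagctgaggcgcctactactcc
Nr4a1: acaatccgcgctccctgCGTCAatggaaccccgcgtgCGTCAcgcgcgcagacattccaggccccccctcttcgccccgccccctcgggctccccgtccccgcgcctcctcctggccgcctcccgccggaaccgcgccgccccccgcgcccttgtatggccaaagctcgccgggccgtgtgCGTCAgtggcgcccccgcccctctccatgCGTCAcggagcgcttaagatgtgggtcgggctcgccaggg
Junb: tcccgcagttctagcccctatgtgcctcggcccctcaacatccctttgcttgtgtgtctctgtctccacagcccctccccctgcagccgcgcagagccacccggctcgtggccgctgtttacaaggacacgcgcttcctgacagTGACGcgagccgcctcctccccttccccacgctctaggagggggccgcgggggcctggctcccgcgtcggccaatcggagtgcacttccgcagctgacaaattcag
Dusp1: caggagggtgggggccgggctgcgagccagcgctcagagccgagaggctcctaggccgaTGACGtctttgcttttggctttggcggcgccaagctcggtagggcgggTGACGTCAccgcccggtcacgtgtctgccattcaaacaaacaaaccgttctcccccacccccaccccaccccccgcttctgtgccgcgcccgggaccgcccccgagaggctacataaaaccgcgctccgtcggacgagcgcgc

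The full cAMP response element TGACGTCA was found in the Dusp1 promoter, 143 bases before its start site, and among 32851 promoters of the same length 1.55% held it. The core TGACG, which every full element also contains, stood 129 and 66 bases before the Fos start, 106 bases before that of Junb, 233, 213, 69 and 40 bases before that of Nr4a1 and 191, 143 and 140 bases before that of Dusp1. At least 1 such core was present in the promoters of all 7 genes found, counting 3 of the 5 entries of Egr2, against 17.8% of all promoters. A CArG box stood in 4 of the 5 Egr2 entries and in 1.47% of all promoters. Neither the AP-1 site TGANTCA nor the Egr site GCGTGGGCG was matched in any of the promoters found, and 6.75% and 0.536% of all promoters held them. These are matches of letters in a short window.

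Per kilobase of exon, which allows levels of different genes to be compared, Arc stood highest in the anterior portion, with a median of 15.4 CPM per kb over 16 libraries. It was followed by Egr1 (10.3 CPM per kb), Nr4a1 (7.71), Egr3 (7.24), Fos (5.47), Junb (5.20), Dusp1 (2.50), Egr2 (1.07), Npas4 (0.601) and Fosb (0.342). Egr3 stood first in the posterior portion with a median of 5.83 CPM per kb over 19 libraries, before Arc (4.29), Egr1 (4.02), Junb (3.89) and Nr4a1 (3.88). The 3 lowest, Egr2 (0.450), Npas4 (0.312) and Fosb (0.181), had the same order in both portions. Ranges of neighbours in these orders overlapped. Junb shares genome sequence with Prdx2 on the other strand, and Dusp1 with Ergic1 and Gm8225, and since the strand setting of the counting is not given, their reads may include some of those genes.

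**Figure D1:**
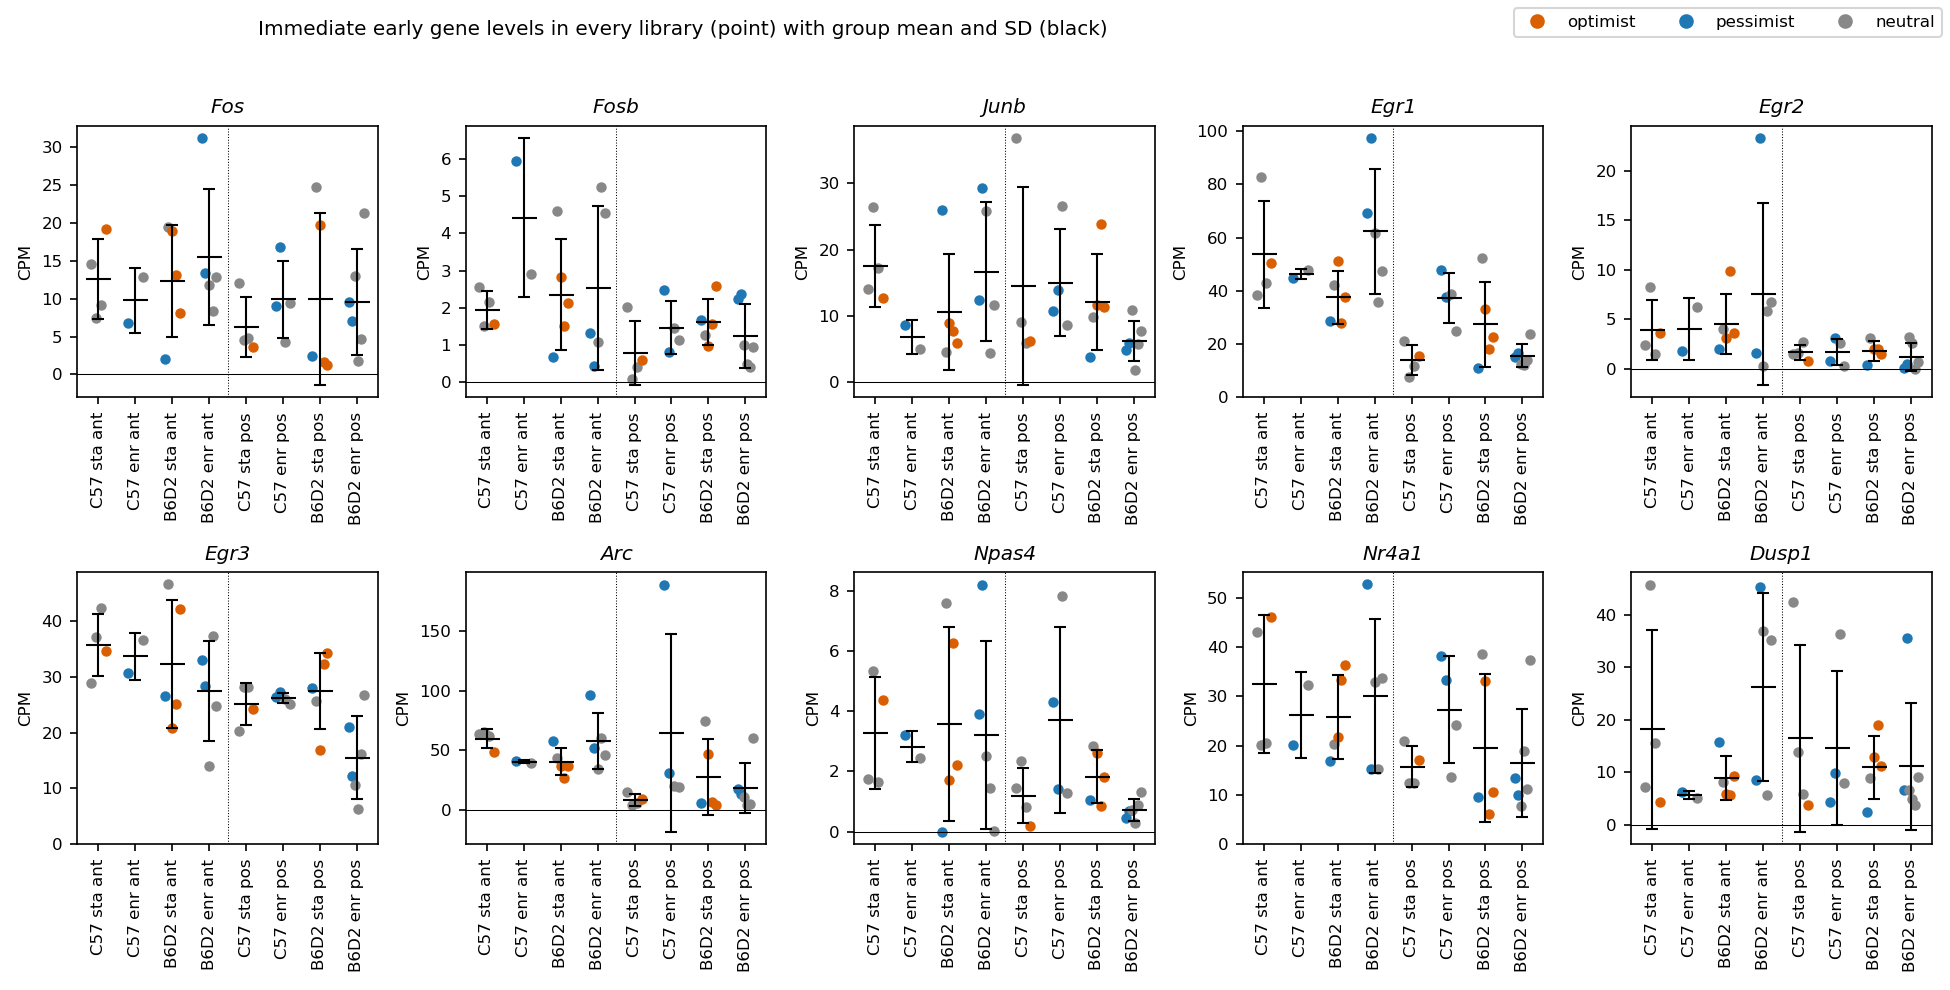
Level of each of the 10 genes (vertical axis, CPM) in every library, with 1 point per mouse coloured by bias class (neutral: neither class), and the group mean and SD in black (horizontal axis: strain, standard (sta) or enriched (enr) housing and portion, anterior left of the dotted line). Arc in the posterior of C57BL/6J enriched mouse 1, at 189 CPM, stands above every other library, and points of the same group often differ several fold.

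The levels differed widely between mice of one group. For Arc, the posterior libraries spanned 19.2 to 189 CPM in C57BL/6J enriched and 3.70 to 60.7 CPM in B6D2F1N enriched mice. For Fos they spanned 1.23 to 24.8 CPM in B6D2F1N standard mice. Within groups, the SD of log2 CPM in the posterior was 1.51 for Arc, 1.36 for Fos and 1.54 for Egr2, against a median of 0.483 over 15321 genes. Egr1 (0.580) and Egr3 (0.485) varied far less. Arc had an anterior SD of 0.407, smaller than the median gene (0.505), whereas Npas4 had 2.02, a larger one than 98.1% of the genes. Npas4, a neuron-restricted factor that shapes inhibitory synapses, was counted 0 times in the anterior library of B6D2F1N standard mouse 1, where 0 counts allow up to 0.133 CPM. Egr2 was counted 0 times in the posterior of B6D2F1N enriched mouse 5, which allows up to 0.161 CPM. These limits cover counting error only.

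The first comparison asked how the portions differ, within each strain and with the mouse as a block. Egr1 was lower in the posterior portion of both strains and Arc was lower in that of B6D2F1N, while no gene of the list was higher. Egr1 encodes a zinc finger factor whose RNA is readily detected in unstimulated neurons. Arc binds the endocytic machinery that removes AMPA receptors from synapses.

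Egr1 in C57BL/6J standard mice 1 to 4 was 38.5, 83.0, 42.9 and 50.5 CPM in the anterior portion, against 21.0, 7.82, 11.8 and 15.4 CPM in the posterior one. In C57BL/6J enriched mice 1 and 3 it was 44.9 and 47.8 CPM against 47.8 and 39.0 CPM. The standard mice did not overlap between portions, the enriched mice did. The log2 fold change was -1.31 ± 0.34 (SE, 6 mice), or 2.47-fold lower in the posterior, with an adjusted p of 0.0376 (edgeR's quasi-likelihood F test, Benjamini-Hochberg method over all genes tested).

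In B6D2F1N standard mice 1 to 5, Egr1 was 28.7, 42.3, 51.4, 27.8 and 37.6 CPM in the anterior portion, against 11.2, 52.4, 33.2, 18.0 and 22.7 CPM in the posterior one. In B6D2F1N enriched mice 1, 2, 3, 4 and 6 it was 69.3, 97.6, 61.7, 35.7 and 47.5 CPM against 15.2, 16.5, 12.4, 12.1 and 23.9 CPM. Every enriched mouse was lower in the posterior portion, and so was every standard mouse but mouse 2. The log2 fold change was -1.26 ± 0.24 (SE, 10 mice; edgeR adjusted p = 0.00468), and the call held with each of the 10 mice left out, with an adjusted p of at most 0.0177. In C57BL/6J the call held with enriched mouse 1 or 3 left out and was lost with any of the 4 standard mice left out, over all of which the adjusted p ran from 0.0128 to 0.157.

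Arc in C57BL/6J standard mice 1 to 4 was 63.6, 65.5, 62.4 and 48.3 CPM in the anterior portion, against 15.0, 4.13, 5.49 and 9.15 CPM in the posterior one, with no overlap. C57BL/6J enriched mouse 1 went the other way, from 41.3 to 189 CPM, and mouse 3 went from 39.7 to 19.6 CPM. Over the 6 mice the log2 fold change was -1.97 ± 0.56 (SE) with an edgeR adjusted p of 0.0625, and without enriched mouse 1 it was -2.57 with an adjusted p of 0.00089.

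In B6D2F1N standard mice 1 to 5, Arc was 57.9, 43.5, 36.9, 26.8 and 37.2 CPM in the anterior portion, against 5.87, 75.1, 47.0, 6.84 and 3.78 CPM in the posterior one. In B6D2F1N enriched mice 1, 2, 3, 4 and 6 it was 96.3, 51.7, 34.1, 60.3 and 45.8 CPM against 17.4, 13.1, 11.0, 3.70 and 60.7 CPM. Standard mice 2 and 3 and enriched mouse 6 were higher in the posterior, and the other 7 were lower. The log2 fold change was -1.73 ± 0.44 (SE, 10 mice; edgeR adjusted p = 0.0294). This call was lost with any of 7 of the 10 mice left out, with an adjusted p of up to 0.0852 and a log2 fold change from -2.01 to -1.47.

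Thus 1 of 10 genes in C57BL/6J and 2 of 10 in B6D2F1N passed the test, against 3.64% and 4.00% of all genes tested. At an unadjusted p under 0.05 there were 6 of 10 in each strain, against 13.5% and 15.5% of all genes. The median log2 fold change of the 10 genes was -0.81 in each strain, and that of all genes was 0.01 in C57BL/6J and 0.15 in B6D2F1N. Without the mouse as a block the call of Egr1 in C57BL/6J was lost (log2 fold change -1.12, adjusted p = 0.111), as was that of Arc in B6D2F1N (-1.0, adjusted p = 0.229). The study's methods give the brain levels of the portions in the reverse of their anatomical order. Should the names be exchanged, every sign here would turn, which was not tested.

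**Figure D2:**
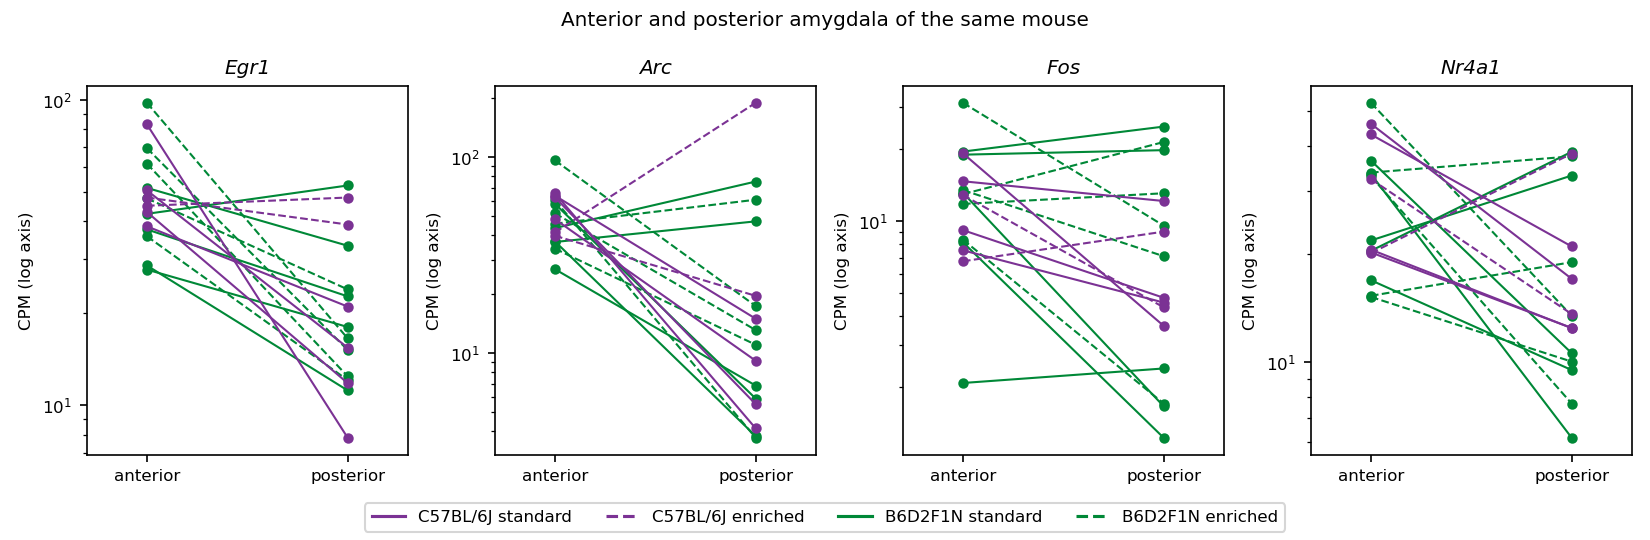
CPM (log axis) of Egr1, Arc, Fos and Nr4a1 in the anterior and posterior portion of each of the 16 mice with both libraries, joined by a line (colour: strain, dashes: enriched housing). Egr1 was lower in the posterior portion of 14 of 16 mice, Arc of 12, Nr4a1 of 11 and Fos of 10.

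The Fos family factors and Junb form the dimer AP-1. For Fos, the classic mark of an active neuron, the log2 fold change of the posterior against the anterior portion was -0.90 ± 0.36 (SE) in C57BL/6J and -0.86 ± 0.39 in B6D2F1N, with edgeR adjusted p of 0.233 and 0.286. Fosb, which includes a stable truncated form that accumulates with repeated stimulation, had -1.61 ± 0.66 and -0.42 ± 0.64. Junb, which pairs with Fos proteins, had -0.04 ± 0.47 and -0.55 ± 0.41. None of the 3 genes passed the threshold in either strain.

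Egr2 and Egr3 are zinc finger factors close to Egr1. Egr2 was lower in the posterior portion of 14 of 16 mice and Egr3 of 13. Their log2 fold changes were -1.14 ± 0.58 (SE) and -0.45 ± 0.18 in C57BL/6J, and -1.88 ± 0.70 and -0.54 ± 0.23 in B6D2F1N, and the edgeR adjusted p ranged from 0.168 to 0.421. The orphan nuclear receptor Nr4a1 had -0.72 ± 0.26 and -0.76 ± 0.33 (adjusted p of 0.183 and 0.256). Npas4 had -0.64 ± 0.70 and -1.01 ± 0.90, and Dusp1, the phosphatase of MAP kinases, had 0.16 ± 0.55 and -0.44 ± 0.39. No region difference was called to depend on strain for any of the 10 genes, nor for any other gene (0 of 10 and 0% of 29437 genes by edgeR's interaction term). Unadjusted p values were under 0.05 for 0 of the 10 genes and for 871 of all genes, and DESeq2 also called 0 of the 10.

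Genes that follow the immediate early wave were compared as a list of 24 delayed activity-regulated genes. Here and below, fell and rose mean lower or higher in the posterior portion at an adjusted p of at most 0.05. Of these genes, 9 of 24 fell in C57BL/6J and 11 of 24 in B6D2F1N, and none rose. Without regard to the threshold, 5 of 24 had a positive log2 fold change in each strain. Of all genes tested, 541 of 25751 and 659 of 27761 were called lower. The median log2 fold change of the list was -0.41 and -0.57. Nptx2, a secreted pentraxin that clusters AMPA receptors, fell by 3.82 ± 0.34 on the log2 scale in C57BL/6J and by 3.31 ± 0.37 in B6D2F1N (edgeR adjusted p of 2.22e-06 and 4.65e-05). Bdnf, the neurotrophin, fell by 1.89 ± 0.20 and 2.08 ± 0.26. Pcsk1, a protease that matures neuropeptides, fell by 0.99 ± 0.16 and 1.16 ± 0.19. Cdkn1a, a cell cycle inhibitor, fell by 1.17 ± 0.21 in C57BL/6J, and Inhba, a subunit of activin, fell by 1.64 ± 0.29 in B6D2F1N.

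**Figure D3:**
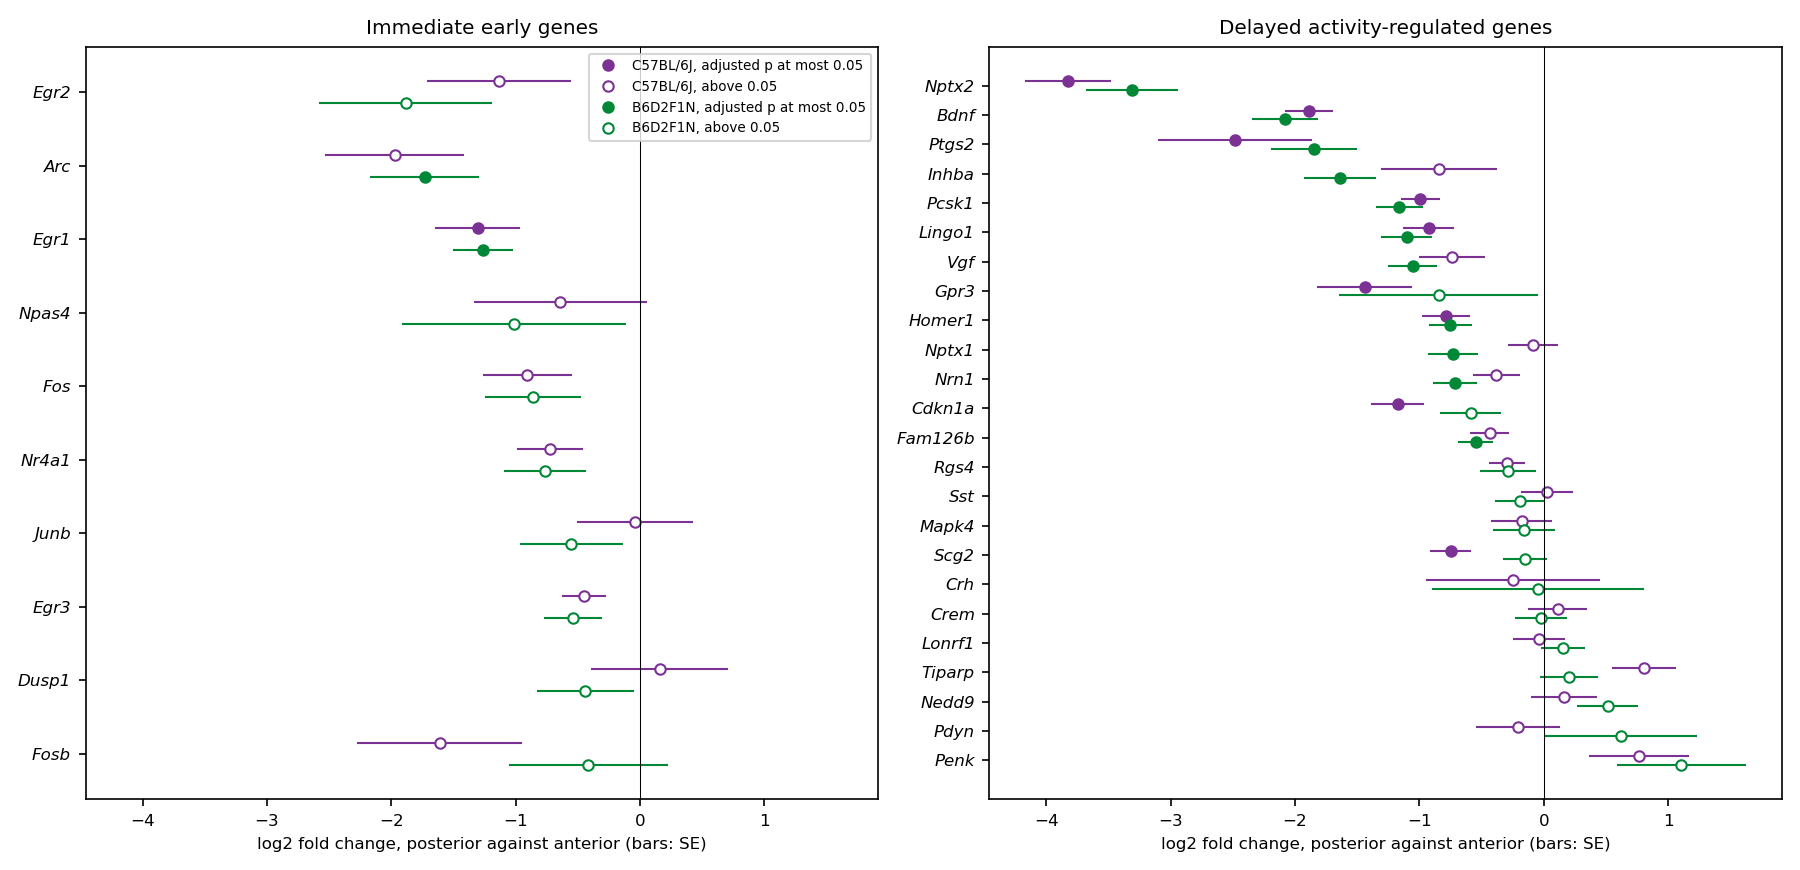
Log2 fold change of the posterior against the anterior portion (horizontal axis; bars are SE) of the 10 immediate early genes (left) and of 24 delayed activity-regulated genes (right) in each strain, with filled points for an adjusted p of at most 0.05. Most points lie left of 0, and Nptx2 and Bdnf lie farther from 0 in units of their SE than any of the 10 immediate early genes.

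Of 40 other immediate early genes, 1 fell and 2 rose in the posterior portion of C57BL/6J, and 3 fell and 1 rose in that of B6D2F1N. Gadd45g, a stress-induced regulator, rose in both strains, by 0.70 ± 0.19 (SE) and 0.79 ± 0.14 on the log2 scale. Jun, the partner of Fos in AP-1, rose by 1.43 ± 0.39 and Dusp6, a phosphatase of ERK, fell by 1.07 ± 0.27 in C57BL/6J. In B6D2F1N, Ier5 fell by 1.53 ± 0.33, the kinase gene Plk2 by 0.60 ± 0.14 and the zinc finger factor Klf10 by 0.88 ± 0.23. Of 18 upstream signalling and transcription factors, Camk4, a kinase that phosphorylates CREB, fell by 0.84 ± 0.17 and Rps6ka5, a kinase downstream of ERK and p38, rose by 1.04 ± 0.22 in C57BL/6J, and Mrtfb, a coactivator of SRF, fell by 0.73 ± 0.15 in B6D2F1N. Of 12 glucocorticoid target genes, Cdkn1a, which is also on the delayed list, was the single one called in C57BL/6J, and 0 were called in B6D2F1N (edgeR), where 3 had an unadjusted p under 0.05. None of the genes of these 4 lists passed the threshold in any comparison other than region.

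Cell type markers also moved with the portion. Of 10 excitatory neuron markers, 4 fell and 1 rose in the posterior portion of each strain, with a median log2 fold change of -0.43 in C57BL/6J and -1.02 in B6D2F1N. Their summed level was 2317 to 5034 CPM in anterior and 1248 to 5793 CPM in posterior libraries, and none was at 0 in a whole group. Of 8 choroid plexus markers, 5 rose in C57BL/6J and 8 in B6D2F1N, and 1 of them, Aqp1, was at 0 in all anterior libraries of B6D2F1N standard mice. Of 8 ependymal markers, 2 and 6 rose. Of 8 astrocyte markers, 4 rose in C57BL/6J, and 1 rose and 1 fell in B6D2F1N. Of 8 meningeal fibroblast markers, 1 and 2 rose, and their summed level was 32.5 to 83.9 CPM in anterior libraries (median 64.3) and 55.9 to 1762 CPM in posterior ones (median 752). Of 8 inhibitory neuron markers 2 and 1 fell, of 8 microglial markers 0 and 1 fell, and of 8 striatal projection neuron markers 1 fell in C57BL/6J and 1 rose in B6D2F1N. Of 8 oligodendrocyte and 8 endothelial markers 0 were called in either strain by edgeR, with an unadjusted p under 0.05 for 2 endothelial markers in B6D2F1N alone. The part of these cells in the region differences was not tested, and in bulk libraries fewer cells of a type and less RNA per cell cannot be told apart.

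The question whether the 10 genes vary together between mice was asked within each portion. Log2 CPM of each gene was set to its deviation from the mean of its strain and housing group, and Pearson's r was tested by a permutation test that moved mice within their groups, with adjustment over 90 pairs. Fos, Arc, Egr1 and Nr4a1 had r of 0.65 to 0.82 with one another in the posterior portion, and 2 of these 6 pairs passed the adjustment. Those pairs had r of -0.14 to 0.55 in the anterior portion. Junb and Dusp1 formed another pair, with nearly equal r in both portions.

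Egr1 and Arc had the smallest p of all pairs in the posterior portion, with r = 0.80 and Spearman's rho = 0.80 over 19 mice (permutation p = 0.00017, adjusted p = 0.0153). Leaving out the 2 mice farthest from the median of Egr1 gave r = 0.77. Fos and Arc had r = 0.82 and rho = 0.85 (permutation p = 0.00064, adjusted p = 0.0288), and r = 0.74 without the 2 mice farthest in Fos. Arc with Nr4a1 (r = 0.76, rho = 0.68) and Egr1 with Nr4a1 (r = 0.71, rho = 0.64) both had a permutation adjusted p of 0.0601. Fos with Nr4a1 (r = 0.68, rho = 0.65) and Fos with Egr1 (r = 0.65, rho = 0.61) had permutation adjusted p of 0.207 and 0.187.

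The same libraries stood high for these genes. Among B6D2F1N posterior libraries, standard mice 2 and 3 and enriched mouse 6 had 24.8, 19.8 and 21.4 CPM of Fos, and the other 8 had 1.23 to 13.0 CPM. Those 3 libraries had 75.1, 47.0 and 60.7 CPM of Arc against 3.70 to 17.4 CPM, and 38.5, 33.1 and 37.4 CPM of Nr4a1 against 6.15 to 19.0 CPM. For all 3 genes they did not overlap the other 8. For Egr1 they had 52.4, 33.2 and 23.9 CPM against 11.2 to 22.7 CPM. Genes and libraries were both picked from these same values, so the separation restates the r above and is no further test. These 3 libraries also had the most genes detected of all 35, with 24870, 25531 and 24754, against at most 24287 in the others. The part of that number in their high levels was not tested. In C57BL/6J, standard mouse 1 was the highest of its group in Fos (12.1 CPM), Arc (15.0), Egr1 (21.0) and Nr4a1 (21.0), and enriched mouse 1 the highest of its group in Arc (189), Egr1 (47.8) and Nr4a1 (38.1), with 9.01 CPM of Fos against up to 16.8 CPM in mouse 2.

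**Figure D4:**
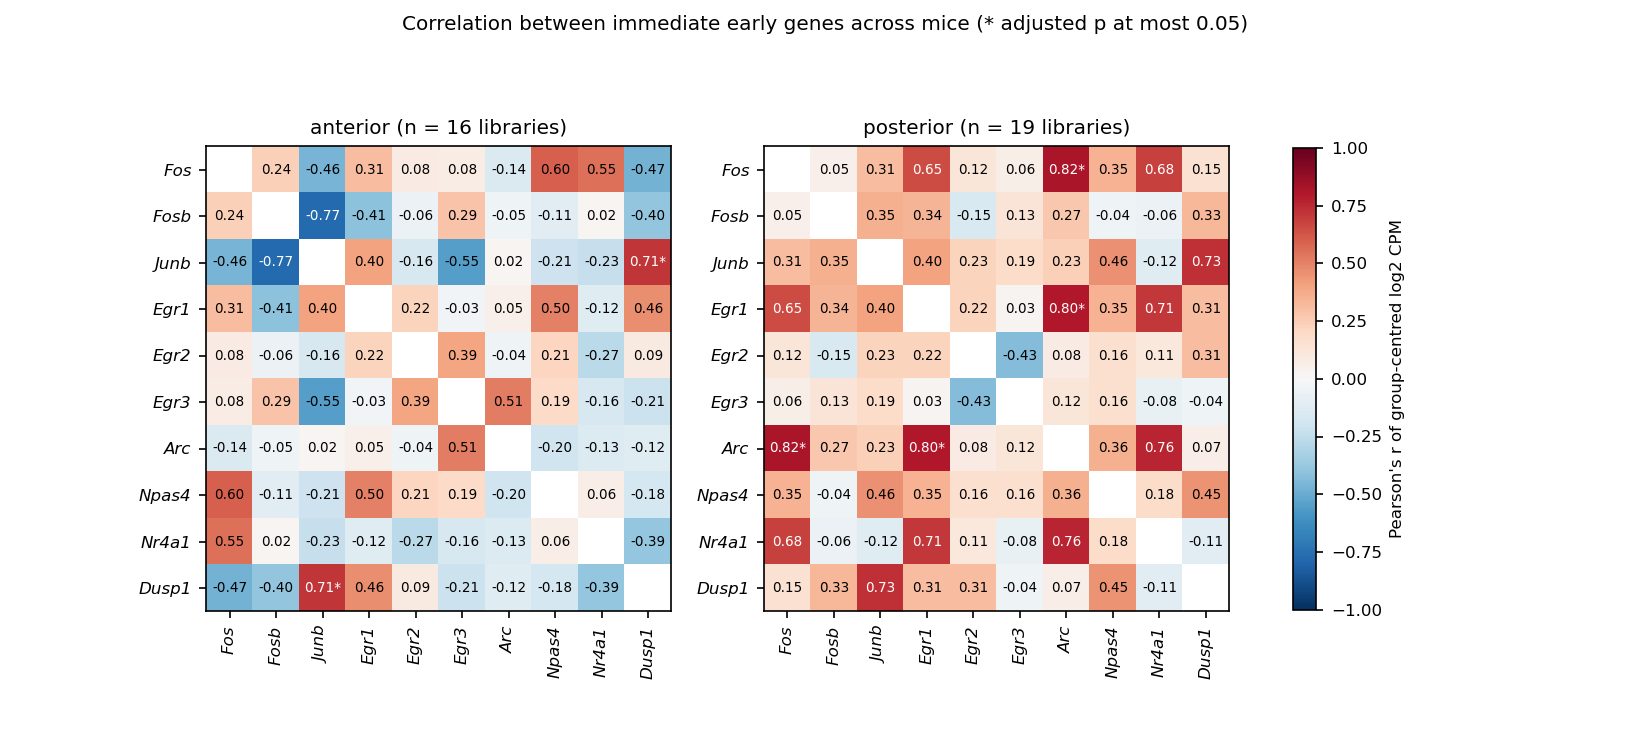
Pearson's r of group-centred log2 CPM between each pair of the 10 genes across 16 anterior libraries (left) and 19 posterior libraries (right), with red for positive and blue for negative r and an asterisk where the permutation adjusted p was at most 0.05. Fos, Egr1, Arc and Nr4a1 are joined by r of 0.65 to 0.82 in the posterior matrix, and Junb with Dusp1 by 0.71 and 0.73 in the anterior and the posterior one.

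Junb and Dusp1 had r = 0.71 and rho = 0.68 in the anterior portion over 16 mice (permutation p = 0.00159, adjusted p = 0.0477) and r = 0.73 and rho = 0.76 in the posterior portion over 19 mice (permutation p = 0.00237, adjusted p = 0.0533). Without the 2 mice farthest from the median of Junb, r was 0.61 and 0.69. In the posterior of C57BL/6J standard mouse 1, Junb was 36.9 CPM and Dusp1 42.4 CPM, against up to 8.96 and 13.8 CPM in the other 3 mice of the group. In the posterior of C57BL/6J enriched mouse 3, Junb was 26.7 and Dusp1 36.3 CPM, against up to 13.8 and 9.76 CPM. Anterior libraries of B6D2F1N enriched mice 2 and 3 had 29.3 and 25.8 CPM of Junb and 45.2 and 36.8 CPM of Dusp1. Enriched mouse 6 of that group, with 11.5 CPM of Junb and 35.2 CPM of Dusp1, departs from the pairing. Junb with Fos, its partner in AP-1, had r of -0.46 in the anterior and 0.31 in the posterior portion.

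**Figure D5:**
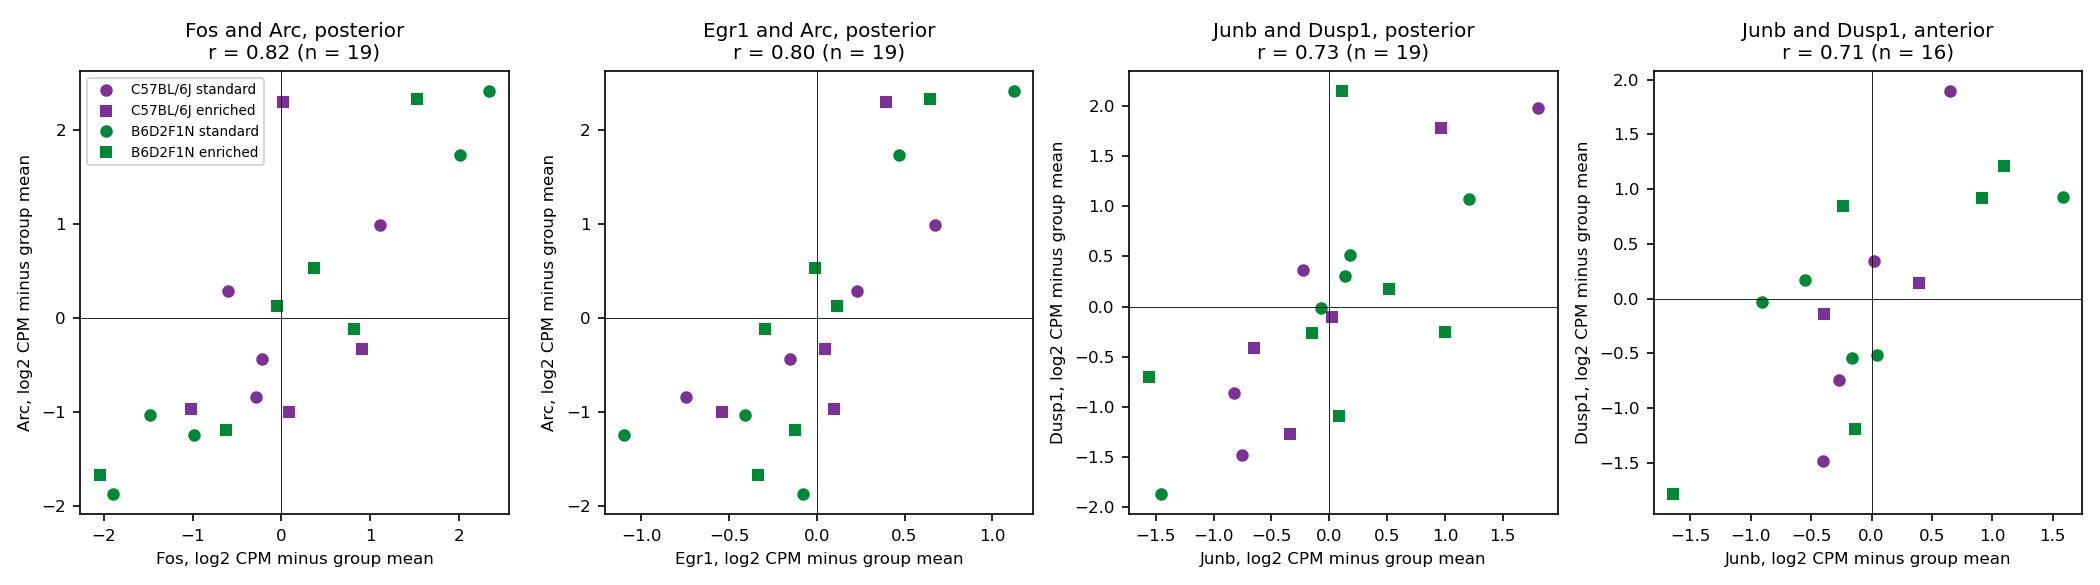
Deviation of log2 CPM from the group mean for Fos and Arc, Egr1 and Arc, and Junb and Dusp1 in the posterior portion (19 mice), and for Junb and Dusp1 in the anterior portion (16 mice); colour gives the strain and shape the housing. Points tend to follow the diagonal in all 4 panels, with r from 0.71 to 0.82. Single mice depart from it, among them B6D2F1N enriched mouse 2 in posterior Junb and Dusp1.

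In all, 37 of 45 pairs had a positive r in the posterior portion, with a median of 0.22 and a range of -0.43 to 0.82, and 2 passed the adjustment (3 by Spearman's rho). In the anterior portion 21 of 45 were positive, with a median of -0.04 and a range of -0.77 to 0.71, and 1 passed (0 by Spearman's rho, with 4 at an unadjusted permutation p under 0.05 by either measure). Between each of the 10 genes and all other genes, 52.3% of r were positive in the posterior and 49.2% in the anterior portion. The lowest r, between Fosb and Junb in the anterior portion, was -0.77 with rho of -0.59 and did not pass (permutation adjusted p = 0.0994), and in the posterior portion the same pair had r = 0.35. The difference in r between the portions was not tested for any pair.

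These calls moved with the mice included. Leaving out each mouse in turn, 0 to 6 pairs passed in the posterior and 0 to 2 in the anterior portion. No posterior pair (0) passed without B6D2F1N standard mouse 2 or 4 or enriched mouse 6, 1 without C57BL/6J standard mouse 1 or B6D2F1N standard mouse 1, 3 or 5, and 6 without B6D2F1N enriched mouse 4. The r of Fos with Arc stayed between 0.77 and 0.92 and that of Egr1 with Arc between 0.73 and 0.84. The anterior call of Junb with Dusp1 was lost without any of 15 of the 16 mice, with r from 0.60 to 0.76. It held without C57BL/6J enriched mouse 3, where Fosb with Junb also passed (r = -0.84, permutation adjusted p = 0.0425).

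The level of each gene in one portion was compared with its level in the other portion of the same mouse. Over the 16 mice with both portions, r between the portions ranged from -0.27 for Fosb to 0.46 for Fos, with a median of -0.003 over the 10 genes and 0.0983 over 15321 genes. None passed (smallest permutation adjusted p of 0.967 by Pearson's r and 1 by Spearman's rho, and 0 of 10 with an unadjusted permutation p under 0.05). Fos had rho = 0.42 and r = 0.49 without the 2 mice farthest from its anterior median. Arc had r = -0.02 (rho = -0.09) and Egr1 r = 0.10 (rho = 0.14).

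Measures of the libraries were set beside these deviations, as 320 relations of the 10 genes with 16 measures in each portion, and none passed the adjustment (smallest permutation adjusted p of 0.230). The number of genes detected in posterior libraries had r = 0.76 with Fos (rho = 0.76), 0.73 with Arc (rho = 0.77), 0.65 with Nr4a1 (rho = 0.62) and 0.57 with Egr1 (rho = 0.55), each with an unadjusted permutation p under 0.05 and r of 0.58 to 0.78 without the 2 mice farthest in that number. The share of reads on no annotated gene had r of -0.57 with Fos and -0.54 with Arc (rho = -0.53 and -0.50). Summed microglial markers had r of -0.72 with Fos (rho = -0.81), and summed oligodendrocyte markers r of 0.69 with Nr4a1 (rho = 0.55). Taken singly, microglial markers had a median r with Fos of -0.52 in the anterior and -0.26 in the posterior portion. For single oligodendrocyte markers the median was 0.32 and 0.69 with Nr4a1, and 0.18 and 0.75 with Fos, in the same order. Anterior Dusp1 had r of -0.83 with a library number in the labels whose meaning is not stated (rho = -0.83) and -0.77 with the number of genes detected (rho = -0.77). The part of these measures in the covariation was tested for the share of reads on no annotated gene alone, added after the data were seen. With it also subtracted, 4 pairs passed in the posterior portion and 1 in the anterior one, while the median posterior r went from 0.22 to 0.15 and the number of positive posterior pairs from 37 to 33 of 45.

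The genes whose deviations were most like the mean of the 10 over both portions, among 15311 other genes with a mean of at least 1 CPM, were Eif5a2 (r of 0.75 in the anterior and 0.80 in the posterior portion), Wrap73 (0.73 and 0.76), Dnaja3 (0.79 and 0.62), Hivep2 (0.65 and 0.74) and Rab31 (0.65 and 0.71). They were picked as the highest of all genes and over 16 and 19 libraries, so their r is a description. The median posterior r with that mean was 0.45 for 12 glucocorticoid target genes, 0.22 for 36 other immediate early genes and 0.12 for 24 delayed activity-regulated genes, against 0.04 for all genes. It was 0.33 for 10 excitatory neuron, 0.34 for 8 oligodendrocyte and 0.28 for 8 meningeal fibroblast markers. Inhibitory neuron markers had -0.30, endothelial -0.24 and striatal projection neuron markers -0.20, and the other marker lists -0.09 to -0.02. Anterior medians were 0.14 for glucocorticoid target, -0.03 for other immediate early and -0.07 for delayed genes, against -0.02 for all genes. Among marker lists they ran from -0.34 (microglia) to 0.42 (choroid plexus), with 0.003 for excitatory neuron markers. The choroid plexus value rests on 5 of the 8 markers. Summed over all 8, these had an anterior median of 18.7 CPM, with the highest library at 956 CPM. The part of the listed cell types in the likeness was not tested. With Fos alone, the 12 glucocorticoid target genes had a median r of 0.62 in the posterior and 0.13 in the anterior portion, against 0.048 and 0.022 for all genes. The 8 oligodendrocyte markers had a higher posterior median with Fos, 0.75, and 0.18 in the anterior portion. Over the other marker lists the posterior median with Fos ran from -0.38 (striatal projection neuron) to 0.38 (excitatory neuron). All these genes share libraries.

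Enriched and standard housing were compared within each strain and portion. No gene of the list passed the threshold in any of the 4 comparisons by edgeR. Egr1 and Arc in the posterior portion of C57BL/6J had the smallest p values of the 10 genes in these 4 comparisons. Arc was 15.0, 4.13, 5.49 and 9.15 CPM in standard mice 1 to 4 and 189, 30.8, 19.6 and 19.2 CPM in enriched mice 1 to 4, and the groups did not overlap. Its log2 fold change was 2.95 ± 0.68 (SE; edgeR adjusted p = 0.186). Egr1 was 21.0, 7.82, 11.8 and 15.4 CPM against 47.8, 37.6, 39.0 and 25.0 CPM, again with no overlap. Its log2 fold change was 1.41 ± 0.31 (adjusted p = 0.172 by edgeR and 0.00523 by DESeq2).

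Nr4a1 in the same mice was 21.0, 12.4, 12.4 and 17.1 CPM against 38.1, 33.3, 13.6 and 24.1 CPM, with a log2 fold change of 0.80 ± 0.33 (SE; edgeR adjusted p = 0.474). Of the 10 genes, 3 had an unadjusted p under 0.05 there, against 10.3% of all genes (2515 of 24526), and 0.0163% of all genes were called. Without C57BL/6J enriched mouse 1 the log2 fold change of Arc was 1.46 (edgeR adjusted p = 0.353), and with C57BL/6J enriched mouse 3 left out Arc passed with 3.26 (adjusted p = 0.0327). Oligodendrocyte markers moved with the same contrast: 1 of 8 was called higher in enriched mice and 7 of 8 had an unadjusted p under 0.05, and their sum was 8273 to 12854 CPM in standard and 18246 to 28601 CPM in enriched mice. Their part in the result was not tested.

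In the posterior portion of B6D2F1N 9 of the 10 genes had a negative log2 fold change. The median of the 10 was -0.62, against 0.03 for all genes, and the 10 share libraries. Egr1 was 11.2, 52.4, 33.2, 18.0 and 22.7 CPM in standard mice and had a lowest, median and highest value of 12.1, 14.6 and 23.9 CPM in the 6 enriched mice. The log2 fold change was -0.83 ± 0.33 (SE; edgeR adjusted p = 0.752), and for Arc it was -0.62 ± 0.78. The genes with an unadjusted p under 0.05 were Egr1, Egr3, Junb and Npas4, 4 of the 10, and 0% of all genes were called (1716, or 6.59%, with an unadjusted p under 0.05). DESeq2 called 0 of the 10. Summed excitatory neuron markers were 2663 to 3164 CPM in standard and 1248 to 2828 CPM in enriched mice, and 3 of these 10 markers had an unadjusted p under 0.05, with 0 called. Of 8 striatal projection neuron and 8 meningeal fibroblast markers, 3 each had an unadjusted p under 0.05, with 0 called. Their part in the result was not tested.

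The difference between the strains in the housing contrast was tested as an interaction. In the posterior portion it was -2.23 ± 0.49 (SE) for Egr1, -3.54 ± 1.20 for Arc and -2.95 ± 0.99 for Npas4, each with an edgeR adjusted p of 0.491, and 0% of all genes passed. DESeq2 called Egr1, with an adjusted p of 0.0305, and edgeR called it with B6D2F1N standard mouse 1 left out (-2.44, adjusted p = 0.0411). In the anterior portion 0 of 10 genes and 0% of all genes passed the interaction (4 of 10 with an unadjusted p under 0.05, against 5.98% of all genes, and 0 of 10 by DESeq2). The largest anterior value was that of Dusp1, 3.26 ± 1.04 (adjusted p = 0.814).

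The anterior housing comparisons called 0 of 10 genes and 0% of all genes in each strain by edgeR, and DESeq2 called 0 of the 10. Unadjusted p values were under 0.05 for Junb, Arc and Dusp1 in C57BL/6J, with log2 fold changes of -1.39 ± 0.42 (SE), -0.58 ± 0.23 and -1.70 ± 0.76 for 2 enriched against 4 standard mice. In B6D2F1N they were under 0.05 for Dusp1 (1.56 ± 0.51) and Egr1 (0.73 ± 0.27). Of all genes, 6.20% in C57BL/6J and 6.30% in B6D2F1N were under it. Dusp1 there was 15.8, 8.11, 5.75, 5.65 and 9.29 CPM in standard and 8.46, 45.2, 36.8, 5.58 and 35.2 CPM in enriched mice, so that the groups overlapped.

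Strains were compared within each housing and portion, in the same libraries as the housing comparisons. Egr1 in the posterior portion of enriched mice was lower in B6D2F1N, with 12.1 to 23.9 CPM (6 mice) against 25.0 to 47.8 CPM in C57BL/6J (4 mice) and no overlap. The log2 fold change was -1.24 ± 0.24 (SE; edgeR adjusted p = 0.0328), and 1 of 10 genes was called against 0.394% of all genes. The call was lost with any of 8 of the 10 mice left out (adjusted p from 0.0176 to 0.174) and in 1 fit of all 4 posterior groups (adjusted p = 0.154). All 10 genes had a negative log2 fold change there, with a median of -0.74, against 0.03 for all genes. The 10 genes share libraries and some vary together, so these are not 10 separate results. Npas4 had -2.32 ± 0.66, with an edgeR adjusted p of 0.267 and a DESeq2 adjusted p of 0.0195. Summed excitatory neuron markers were 1248 to 2828 CPM in B6D2F1N and 1672 to 5793 CPM in C57BL/6J, and oligodendrocyte markers 6953 to 16545 CPM against 18246 to 28601 CPM. Their part in the result was not tested.

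In the other 3 strain comparisons 0 of 10 genes were called by edgeR or DESeq2. All genes called were 0.370% in standard anterior, 0.373% in standard posterior and 0.0639% in enriched anterior libraries. Unadjusted p values were under 0.05 for Arc in standard anterior libraries (-0.57 ± 0.21 on the log2 scale, lower in B6D2F1N), for Egr1 and Arc in standard posterior ones (1.00 ± 0.41 and 1.75 ± 0.78, higher in B6D2F1N) and for Dusp1 in enriched anterior ones (2.25 ± 0.78). Of all genes, 9.00%, 10.3% and 4.33% were under it in these comparisons.

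Across all 8 groups, the mean of Egr1 ran from 62.4 ± 23.6 CPM (SD, n = 5) in B6D2F1N enriched anterior to 14.0 ± 5.6 CPM (n = 4) in C57BL/6J standard posterior libraries. The 4 anterior groups held the first 4 places, and neighbours in the order overlapped in range throughout. For Arc, C57BL/6J enriched posterior stood first (64.8 ± 83.2 CPM, n = 4), by the one library at 189 CPM, and C57BL/6J standard posterior last (8.44 ± 4.85 CPM, n = 4), and all neighbours overlapped.

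Optimists and pessimists were compared within each portion, with strain and housing as further terms, and 0 of 10 genes passed by edgeR, against 0.00414% of all genes tested in anterior and 0.00396% in posterior libraries. At an unadjusted p under 0.05 there were Fos, Junb and Npas4 in the anterior and Dusp1 in the posterior portion, against 4.13% and 3.5% of all genes. Because only B6D2F1N standard mouse 1 was a pessimist in standard housing, these fits rest on that mouse and could not be fitted without it.

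Npas4 in the anterior portion was 4.38, 1.73, 6.27 and 2.22 CPM in the 4 optimists and 3.20, 0, 3.9 and 8.19 CPM in the 4 pessimists, the 0 belonging to that mouse. The groups overlapped. DESeq2 gave Npas4 an adjusted p of 0.0493 and edgeR 0.876, and the fitted log2 fold change of 9.27 is set by a library at 0 and is no measure of size. Without terms for strain and housing it was -0.04. Fos in the anterior portion was 19.2, 18.9, 13.1 and 8.13 CPM in optimists and 6.76, 2.09, 31.2 and 13.4 CPM in pessimists, again with the lowest value in that mouse. Dusp1 in the posterior portion had a log2 fold change of 2.52 ± 0.92 (SE; edgeR adjusted p = 1).

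Within one housing, where bias and housing are not mixed, optimists were compared with mice of neither class in standard housing. Pessimists were compared with mice of neither class in enriched housing, and strain was a further term in each fit. In standard housing bias was partly mixed with strain, with 1 C57BL/6J and 3 B6D2F1N optimists against 3 and 1 mice of neither class. In all 4 comparisons 0 of 10 genes and 0% of all genes passed by edgeR, 0 of 10 had an unadjusted p under 0.05, and DESeq2 called 0 of the 10. The largest value was -1.76 ± 1.05 (SE) on the log2 scale for Npas4 in posterior libraries of optimists, and 1.69 ± 1.12 for Npas4 in anterior libraries of pessimists. For Arc the values were -0.38 ± 0.22 and -0.92 ± 0.73 for optimists and 0.50 ± 0.31 and 0.96 ± 0.89 for pessimists, in anterior and posterior libraries.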

How the data were processed

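RNA of laser-captured cells of the anterior and posterior amygdala was sequenced in 35 libraries from 19 mice, as single reads of 72 bases without molecular identifiers. According to the labels and processing notes, the authors trimmed reads with Trimmomatic 0.38, checked them with FastQC 0.11.7, aligned them with HISAT2 2.1.0 to GRCm38, handled alignments with SAMtools 1.8 and made gene counts with HTSeq 0.11.2. The annotation release and the strand setting are not given in the sources used here. The deposited values are raw counts per gene, and rows that name no gene (13.7% to 26.4% of reads on no annotated feature) were left out of library sizes.

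Counts were fitted with edgeR 4.0.16 (TMM factors, quasi-likelihood test, genes with at least 10 counts in total, R 4.3.3) and adjusted over all genes by Benjamini-Hochberg, with calls at an adjusted p of 0.05. The mouse was a block between portions, since the labels tie both libraries to the same animal. Bias fits carried strain and housing. The SE given with a log2 fold change was derived from the test, as its absolute value divided by the square root of the F value. Two-sided permutation tests of correlations used 100000 permutations within strain and housing groups, on log2 CPM with a prior count of 2 and, for comparisons with other genes, a mean of at least 1 CPM. The scripts were tested on simulated data. The alternatives were DESeq2 1.42.0, its size factors, other filters, no block, 1 fit per portion and each mouse left out. Counting intervals and floors (3 counts) cover counting error only. Replicates are mice.

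The 10 genes and all lists were chosen with earlier results of these data known. Genes of the lists were named where they passed the test in a region comparison, at most the 4 with the smallest p per list and strain, and of all other genes the 5 most like the mean of the 10.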

Additional observations from a re-analysis of the deposited data

Results flagged for a closer look

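Of 70 sets of one gene in one group with 4 to 6 mice, 9 held a library far from the others by Dixon's criterion. For normal values and independent sets about 1 in 20, or 3.5, would be far by chance. These sets share libraries, and CPM was not tested for normality, so 9 cannot be set against 3.5 as a test. In the posterior portion, C57BL/6J standard mouse 1 stood above its group in Fos (12.1 CPM) and Junb (36.9 CPM), and C57BL/6J enriched mouse 1 in Arc (189 CPM). B6D2F1N enriched mouse 6 stood above its group in posterior Arc (60.7 CPM), and B6D2F1N enriched mouse 2 in posterior Dusp1 (35.7 CPM). In the anterior portion, B6D2F1N enriched mouse 1 stood apart in Fos (31.2 CPM) and mouse 2 of that group in Egr2 (23.3 CPM). B6D2F1N standard mouse 1 stood apart in anterior Junb (26.0 CPM) and mouse 4 of that group in anterior Egr2 (9.83 CPM). All 9 libraries lay above the others of their group.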

How the results depend on the processing

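Counts below are of the 10 genes called, or of pairs. In the region comparison of C57BL/6J the count moved from 1 to 0 with edgeR's own filter, to 2 with no minimum count and to 0 with no replicate block, and in B6D2F1N from 2 to 1 with no replicate block. In enriched posterior libraries the strain count moved from 1 to 2 with DESeq2 and to 0 in 1 fit for 4 groups. The housing count moved from 0 in C57BL/6J anterior to 1 with no minimum count, and in C57BL/6J posterior to 1 with DESeq2 and 2 with no minimum count. DESeq2 gave 1 for bias in the anterior portion and 1 for the interaction of strain and housing in the posterior portion. The fitted value of Npas4 for bias in the anterior portion turned from 9.27 to -0.044 on the log2 scale without terms for strain and housing. Anterior pairs moved from 1 to 2 with no centring and to 0 by Spearman's rho, with DESeq2's size factors, or with mice of both portions only, where the anterior mice are the same and the adjustment over both portions differs. Posterior pairs moved from 2 to 7 with no centring and to 4 with the share of reads on no feature also subtracted, chosen after seeing the data. Causes were not tested.

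With each mouse left out, the counts ranged from 0 to 3 for region in C57BL/6J, 1 to 2 in B6D2F1N, 0 to 1 for strain in enriched posterior libraries, 0 to 1 for housing in C57BL/6J posterior, 0 to 1 for the posterior interaction, 0 to 2 for anterior and 0 to 6 for posterior pairs. They stayed at 0 in the other comparisons. The bias fits could not be fitted without B6D2F1N standard mouse 1. Apart from mice left out, 259 of the values of single genes or pairs kept direction and side of the threshold, 16 passed it newly, 7 no longer did and 1 reversed. Most of these values were not called in the main fit and so had no call to lose. The 259 are therefore no measure of how stable the calls are.

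DESeq2 called more genes in all than edgeR: 1512 against 937 for region in C57BL/6J, 1994 against 1110 in B6D2F1N, 257 against 90, 392 against 94, 137 against 15 and 342 against 101 for strain (standard anterior, standard posterior, enriched anterior, enriched posterior), 100 against 0 and 319 against 4 for housing in C57BL/6J (anterior, posterior), 8 and 14 against 0 in B6D2F1N, 19 against 1 for bias in each portion, 2 against 0 for pessimists in anterior libraries, and 2 and 16 against 0 for the interaction of strain and housing. With no minimum count the totals were 57 for strain in enriched anterior libraries, 274 and 112 for housing in C57BL/6J, 22 and 79 for bias, 1 and 1 for optimists, 35 and 33 for pessimists and 2 for region by strain. In 1 fit for 4 groups they were 44 for strain in enriched anterior libraries and 0 for housing in C57BL/6J posterior, and without strain and housing terms 0 for bias in both portions.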
